A study of Mus musculus with 8 samples.

Results

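The cytosolic ribosomal protein genes were taken as every protein-coding gene named Rpsa, Rplp0, Rplp1 or Rplp2, or named by the Rpl and Rps numbering, without the Rps6 kinases and without pseudogenes. This gave 81 genes, 32 of the small subunit and 49 of the large subunit, among the 24755 genes with a row in either of the deposited tables, and the same 81 had a row in both. RNA-seq had been made from dorsal skin of mice in telogen, the resting phase of the hair cycle, from sorted hair follicle stem cells (HFSCs; Sca-1 negative, CD34 high) and epidermal stem cells (EpdSCs; Sca-1 positive, CD34 low). Wild-type (WT) HFSCs came from mice of 2 months, and Msx2 knockout (Msx2-KO) HFSCs, WT EpdSCs and Msx2-KO EpdSCs from mice of 6 months, with 2 libraries in each group and 8 in all. As WT controls the paper names C57BL/6J mice from the Jackson Laboratory, matched for hair cycle. Its Msx2-KO mice came from crosses between heterozygous mice. The Msx2-KO allele is present in every cell, with a neo cassette inserted ahead of exon 2. The sources used here do not say whether a library holds cells of a single mouse. The p-values therefore measure the spread between libraries, which may be technical.

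Ribosomal proteins fold onto ribosomal RNA in the nucleolus to build a small subunit, which reads the mRNA, and a large subunit, which joins amino acids. Each mature ribosome holds most of these proteins in a single copy, and their mRNAs are known for a run of pyrimidines at the transcription start, through which mTOR signalling sets how well they are translated. Some proteins have a second gene, such as Rpl22l1 for Rpl22, and the family is known for many processed pseudogenes, whose reads are hard to tell from those of the parent.

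The HFSC table held estimated counts, and the library totals were 3132974 to 4324511 in WT and 6895606 to 11016659 in Msx2-KO. The EpdSC table held normalised values, from which 15213679 to 21092705 estimated counts per library were worked back. Mitochondrial ribosomal RNA took 8.94% and 36.3% of the 2 WT HFSC libraries against 49.4% and 53.2% of the Msx2-KO HFSC libraries, and 23.5% and 16.4% of WT EpdSCs against 0.0730% and 6.18% of Msx2-KO EpdSCs. In HFSCs genotype, age and the pattern of the library names in the table header changed together and cannot be told apart. In EpdSCs the sample numbers in the library names also differed between genotypes, so genotype and sample numbers cannot be told apart there either. Msx2 itself stood at 7.08 and 2.26 CPM (counts scaled to a common library size, with TMM factors) in the WT HFSC libraries and at 4.36 and 3.82 in those labelled Msx2-KO, and at 58.5 and 85.4 normalised units in WT EpdSCs against 150 and 22.2 in Msx2-KO EpdSCs. The groups overlapped in both cell types, so its level did not separate the libraries labelled Msx2-KO from WT. By RNAscope, staining of RNA in skin sections, the paper reports no Msx2 expression in Msx2-KO mice. Every direction below is that of the libraries labelled Msx2-KO.

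Sequence at the start sites was available in RefSeq (GRCm38.p6) for 61 of the 81 genes. The 30 bases around the start are shown for genes on which the results turn, 5′ to 3′ on the strand of the gene, with a pyrimidine run in capitals where there is one. A run was counted where a C within 5 bases of the start was followed without a break by at least 5 more C or T, and the longest is marked. Shorter stretches, and runs that begin farther from the start, were not counted. The Rpl39 window holds both.
Rpl35, chr2:39005112-39005141, minus strand: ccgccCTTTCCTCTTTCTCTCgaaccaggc
Rpl13a, chr7:45128726-45128755, minus strand: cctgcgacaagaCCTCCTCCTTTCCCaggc
Rpl18, chr7:45718061-45718090, plus strand: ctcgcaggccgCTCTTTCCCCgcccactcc
Rps15a, chr7:118116128-118116157, minus strand: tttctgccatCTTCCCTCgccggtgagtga
Rpl27, chr11:101442235-101442264, plus strand: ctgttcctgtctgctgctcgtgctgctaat
Rpl39, chrX:37085203-37085232, minus strand: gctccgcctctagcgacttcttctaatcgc
Rpsa, chr9:120127756-120127785, plus strand: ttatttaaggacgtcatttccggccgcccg
Such a run was found in 26 of the 61 genes (42.6%) and in 11.9% of the 26964 other genes with a RefSeq start. The letters CCGGAAG, an ETS-type motif sought on both strands from 250 bases before to 50 bases after the start, were present in 41.0% of the ribosomal protein genes and in 9.86% of the others, AGATGGC (YY1-type) in 13.1% and 7.29%, CACGTG (E-box) in 9.84% and 8.09%, and TATAAA in 11.5% and 15.7%. A match describes the letters in this window and is not a site. The genes shown with a run include Rps15a, high in Msx2-KO EpdSCs, and Rpl35, Rpl13a and Rpl18, low in them. Those without a run counted in this way include Rpl27, high, and Rpl39 and Rpsa, low.

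As a share of the nuclear protein-coding counts, the 81 genes together made up 0.777% and 0.726% of the WT HFSC libraries and 2.95% and 2.21% of the Msx2-KO HFSC libraries. Both Msx2-KO libraries thus lay above both WT libraries. In EpdSCs the WT libraries held 3.65% and 3.20%, the Msx2-KO libraries 4.03% and 2.35%, and the groups overlapped. Over all counts the HFSC shares were 0.594% and 0.347% (WT) against 0.993% and 0.592%, so that the groups overlapped on this denominator, which includes the mitochondrial ribosomal RNA. With 2 libraries a group, an exact two-sided permutation test cannot give a p below 0.3333, and none was run.

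**Figure D1:**
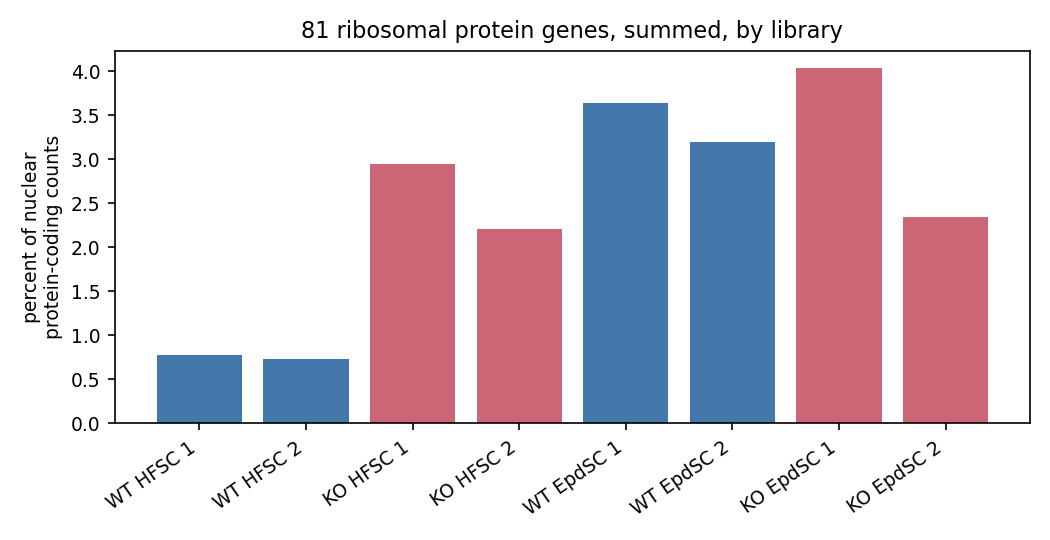
Summed counts of the 81 ribosomal protein genes as a percent of nuclear protein-coding counts (y axis, from 0) in each of the 8 libraries (x axis; blue WT, red Msx2-KO), 1 bar per library. The WT HFSC bars, at 0.777% and 0.726%, lie below the other 6.

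In HFSCs, ribosomal protein genes were mostly higher in the libraries labelled Msx2-KO, but none passed the test. Of the 81 genes, 59 had both Msx2-KO libraries above both WT libraries, 5 had both below and 17 overlapped. Over the 14422 genes tested, the groups did not overlap in the higher direction in 17.5% and in the lower direction in 33.5%. By edgeR (quasi-likelihood, Benjamini-Hochberg adjusted) no gene of the table was called at an adjusted p under 0.05 and a fold change over 2 (0.0% in each direction), and the smallest adjusted p of a ribosomal protein gene was 0.143. At an unadjusted p under 0.05, 47 of the 79 ribosomal protein genes that passed the filter on low counts were past the threshold, against 18.1% of all genes tested. DESeq2, on the same genes, called 27 higher and 0 lower, against 2.24% higher and 2.43% lower of all genes. limma-trend called 19 higher and 1 lower, against 1.1% and 8.66%. The 79 had a median log2 fold change of 1.51, with 71 above 0 (45.4% of all genes tested), against -0.14 over all genes tested. When library totals replaced the TMM factors, both medians moved down, to 0.65 and -1.002, and 2 ribosomal protein genes were called higher. Genes of the small subunit (median 1.42, 27 of 31 above 0) and of the large subunit (median 1.53, 44 of 48) had similar medians.

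**Figure D2:**
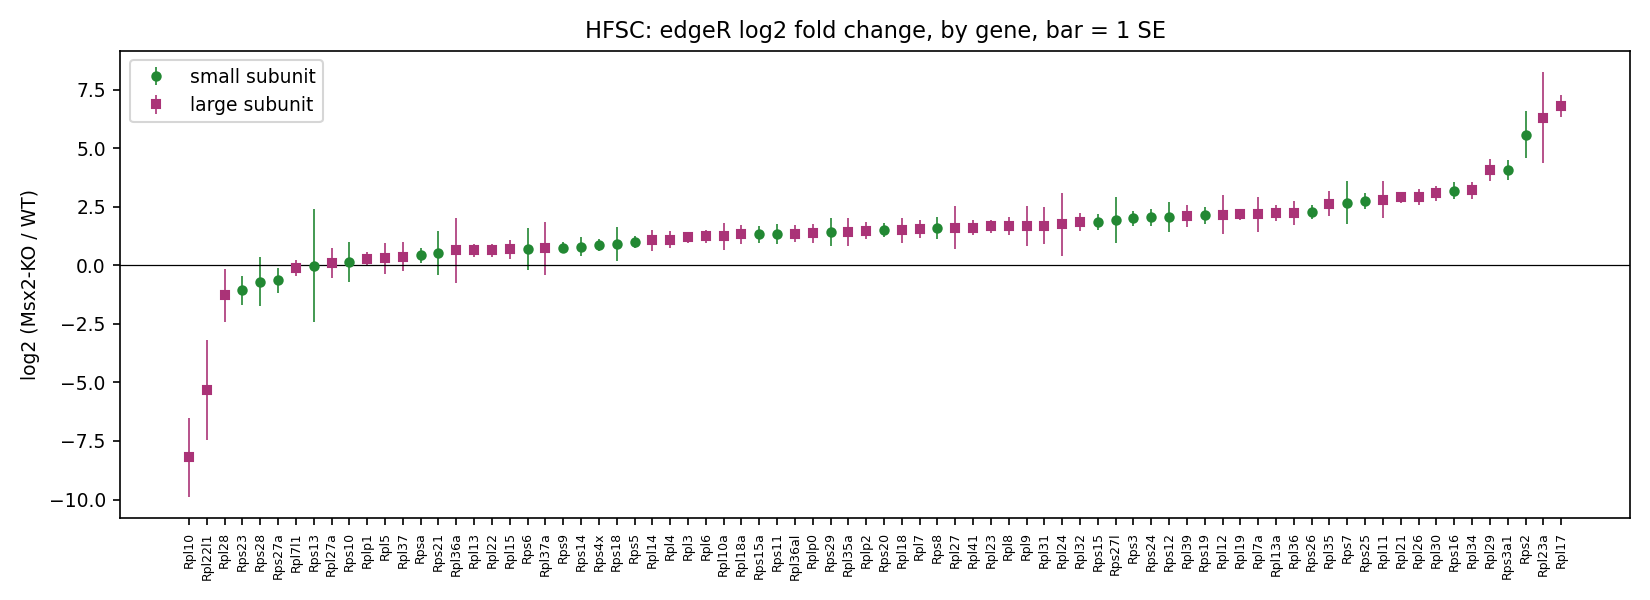
log2 fold change of Msx2-KO over WT HFSCs (y axis; edgeR) for 78 ribosomal protein genes, in order of value (x axis); bars are 1 standard error, circles small subunit and squares large subunit. Of the 78 points, 70 lie above 0, from Rpl10 at -8.19 to Rpl17 at 6.83.

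Of proteins in the exit tunnel of the large subunit, through which the new chain leaves, or around its exit, 9 genes were listed. All 9 had Msx2-KO HFSCs above WT without overlap, against 59 of all 81 ribosomal protein genes and 17.5% of all genes tested. Their median log2 fold change was 2.17, and 1.77 with named pseudogenes added. Rpl17, at the tunnel exit, read 0.667 and 0.647 CPM in WT and 89.9 and 64.3 in Msx2-KO (log2 fold change 6.83 ± 0.469 SE). The WT values rest on 4.78 and 1.98 estimated counts, and with the counts of pseudogenes named for Rpl17 added the log2 fold change was 1.77. Rpl23a of this list read 0 and 0.647 CPM in WT, and its log2 fold change of 6.32 was 2.50 with pseudogenes added. Rpl26, beside the exit, read 40.2 and 55.9 CPM in WT and 424 and 301 in Msx2-KO (2.92 ± 0.338). Its change was 2.92 with the pseudogenes added too. Rpl4, with loops that reach into the tunnel, read 302 and 287 CPM in WT and 814.5 and 452 in Msx2-KO (1.10 ± 0.374). Rpl4, like the others named here, did not overlap between the groups.

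Around the mRNA channel of the small subunit, Rps2, at the entry, stood at 1.07 and 7.11 CPM in WT and at 165 and 193 in Msx2-KO (log2 fold change 5.58 ± 0.992 SE), which was 2.52 with named pseudogenes added. Rps3a1 read 15.9 and 23.3 CPM in WT and 414 and 245 in Msx2-KO (4.08 ± 0.435). Rpl29 of the large subunit read 17.2 and 27.2 CPM against 474 and 264 (4.07 ± 0.477). For these genes both Msx2-KO libraries lay far above both WT libraries, and DESeq2 gave Rps3a1 an adjusted p of 4.03e-15 and Rpl29 2.42e-14, where edgeR gave 0.143 for each. Rps23, in the decoding centre, went the other way, at 17.6 and 23.3 CPM in WT and 10.1 and 9.34 in Msx2-KO (-1.07 ± 0.607), but at 1.49 with named pseudogenes added.

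Of the stalk, which recruits elongation factors, Rplp0 read 91.2 and 173 CPM in WT HFSCs and 311 and 370 in Msx2-KO (log2 fold change 1.37 ± 0.395 SE). Rplp2 read 16.2 and 17.1 against 51.2 and 41.4 (1.48 ± 0.366). Rplp1 read 131 and 180 against 205 and 174 (0.29 ± 0.271), so that Rplp1 overlapped between the groups while its partners did not. Of the proteins that carry the 5S RNA and bind Mdm2, the p53 ligase, Rpl11 read 3.34 and 4.20 CPM against 37.3 and 15.5 (2.81 ± 0.790), and Rpl5 read 12.1 and 23.0 against 14.6 and 28.9 (0.31 ± 0.665) and overlapped. Rpsa, also known as the laminin receptor, read 318 and 441 CPM in WT and 592 and 426 in Msx2-KO (0.42 ± 0.322), again with overlap. Per kilobase of transcript, the highest mean level in WT HFSCs was that of Rplp1, at 312 CPM, followed by Rpl22 at 255 and Rpsa at 237, and in Msx2-KO HFSCs those of Rpl26 at 688, Rpl8 at 638 and Rpl29 at 633.

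Among genes whose mutation is known to give skin or skeletal changes in mice, Rps19 read 42.5 and 25.2 CPM in WT HFSCs and 160 and 140 in Msx2-KO (log2 fold change 2.14 ± 0.354 SE), and Rps20 read 37.1 and 30.1 against 80.2 and 111 (1.51 ± 0.312), both without overlap. Rps6, the substrate of S6 kinase, read 10.5 and 20.4 against 40.8 and 9.55 (0.71 ± 0.904) and overlapped. Rpl24 read 2.00 and 4.53 against 18.3 and 3.61 and overlapped as well. Rpl38 did not pass the filter on low counts, with estimated counts of 2.72 and 3.70 (WT) against 5.33 and 69.8.

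The lowest values belonged to Rpl10, with 43.4 and 18.7 estimated counts in WT HFSCs and 0 in both Msx2-KO libraries. Against a floor of 3 counts in each Msx2-KO library it was at least 12.3-fold lower, yet with the counts of its named pseudogenes added its log2 fold change was 1.11. How reads were shared between Rpl10 and its copies was not tested.

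In HFSCs, marker lists of other cells also differed between the groups, in both directions. The 9 listed HFSC markers were all lower in both Msx2-KO libraries without overlap, against 33.5% of all genes tested. Their summed levels were 9464 and 8890 CPM in WT and 4552 and 4894 in Msx2-KO (Fgf18 at 0 in Msx2-KO replicate 1). None of the 9 was called by edgeR, and 2 had an unadjusted p under 0.05 (18.1% of all genes). DESeq2 called 2 of them lower (2.43% of all genes). The paper reports no significant deviation of HFSC markers such as Krt15 and Lhx2. Sums over 7 suprabasal markers, of the differentiating epidermis, were 171 and 199 CPM against 751 and 2848, with Lor at 0 in 3 of the 4 libraries. Sums over 5 sebaceous markers were 69.3 and 91.5 against 1340 and 1011 (Cidea at 0 in both WT libraries), and over 6 cycling markers 50.5 and 63.7 against 586 and 480.1. Interfollicular basal markers were lower in sum, at 7920 and 8008 CPM over 6 genes against 5038 and 4803. Of these genes 4 were lower and 1 higher without overlap (33.5% and 17.5% of all genes). Fibroblast markers were lower too, with sums over 4 genes of 50.9 and 65.0 against 28.2 and 14.2 (Pdgfra at 0 in both Msx2-KO libraries). Their part in the ribosomal protein result was not tested. Fewer cells of a type and less RNA per cell cannot be told apart in these bulk libraries.

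In EpdSCs, ribosomal protein genes went both ways, and the 2 Msx2-KO libraries differed widely from each other. By limma on log2(value + 1) with Benjamini-Hochberg adjustment, 1 of the 81 was called higher and 5 lower, against 1.57% and 7.78% of the 16231 genes tested. Without overlap, 24 were higher and 42 lower in Msx2-KO, against 27.8% and 44.5% of all genes, so the shares of the 81, 29.6% and 51.9%, lay near the background. The median log2 fold change was -0.93, with 31 of 81 above 0 (40.3% of all genes), against -0.64 over all genes tested. None of the 6 calls was made when either WT library was left out, and edgeR on counts worked back from the values called no gene (0.0% in each direction), with 33.9% of all genes at an unadjusted p under 0.05. Without Msx2-KO replicate 1 the same test called 12 higher and 26 lower (12.9% and 24.7% of all genes) with a median of -0.39, and without replicate 2 it called 24 and 40 (23.1% and 40.9%) with a median of -1.09. With an arm reduced to 1 library, that library is assumed to vary like the WT libraries.

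**Figure D3:**
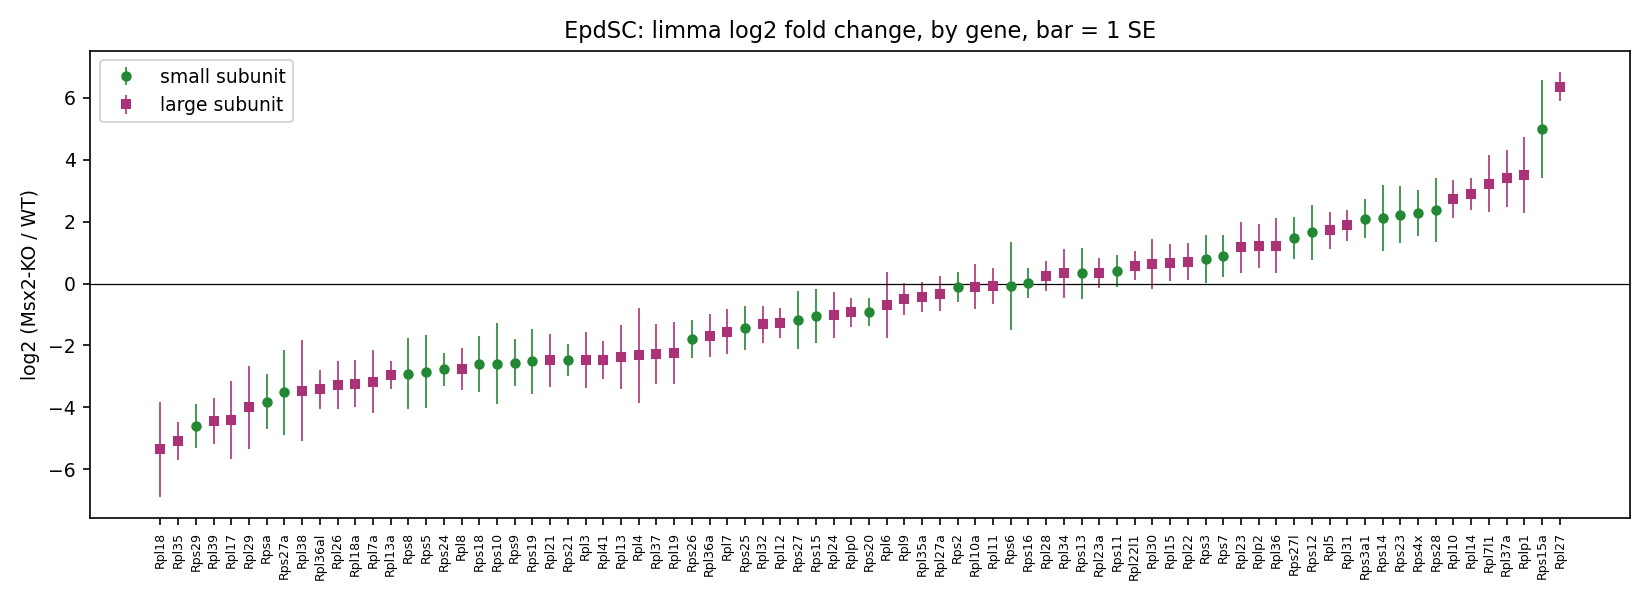
log2 fold change of Msx2-KO over WT EpdSCs (y axis; limma on log2(value + 1)) for 80 ribosomal protein genes, in order of value (x axis); bars are 1 standard error, circles small subunit and squares large subunit. Values run from Rpl18 at -5.35 to Rpl27 at 6.36, with 31 above 0.

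The gene that rose was Rpl27, of the large subunit, at 187 and 231 normalised units in WT EpdSCs and 16381 and 18071 in Msx2-KO (log2 fold change 6.36 ± 0.474 SE, adjusted p = 0.0266, limma). Its Msx2-KO replicates lay close together, and with named pseudogenes added its log2 fold change was 5.34. Rpl27 in HFSCs read 3.604 and 5.17 CPM in WT and 10.3 and 16.6 in Msx2-KO. Among genes that fell, Rpl35, at the tunnel exit, went from 2177 and 2089 units to 41.2 and 91.2 (-5.10 ± 0.614, adjusted p = 0.0296, limma). Its Msx2-KO values lay far below the WT values.

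The called genes also included Rps29, a zinc-binding protein of the small subunit, Rpl39, of the tunnel, and Rpl13a. Rps29 read 1278 and 1037 units in WT and 27.5 and 78.1 in Msx2-KO (-4.60 ± 0.711, adjusted p = 0.0436, limma). Rpl39 read 1970.2 and 1925 against 50.9 and 154 (-4.44 ± 0.733, adjusted p = 0.0487). Rpl13a read 20315 and 19454 against 2767 and 2368 (-2.96 ± 0.466, adjusted p = 0.0452). These lay closest to the threshold, and each was lost under a pseudocount of 0.1. Rpl39 was also lost with named pseudogenes added (log2 fold change -4.29).

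Other large differences in EpdSCs did not pass. Rpl18 had the lowest fold change, at 4081 and 3597 units in WT and 22.3 and 376 in Msx2-KO (-5.35 ± 1.53), with the Msx2-KO replicates 16.9-fold apart. Rps15a read 2096 and 1876 against 269738 and 15020 (5.004 ± 1.58). Rplp1 read 8126 and 6982 against 254187 and 29127 (3.51 ± 1.22). The 2 Msx2-KO libraries were 17.96-fold apart for Rps15a and 8.73-fold apart for Rplp1, with replicate 1 the higher, while all Msx2-KO values of both genes lay above all WT values. Rpsa read 20352 and 18753 against 680.3 and 2846 (-3.81 ± 0.878, adjusted p = 0.0779, limma). Rpl37a read 323 and 281 against 6904 and 1471 (3.40 ± 0.931), and Rpl5 read 845 and 601 against 3255 and 1715 (1.73 ± 0.595). None of these overlapped between the groups.

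Stalk genes of EpdSCs were split, with Rplp0 at 24876 and 22877 units in WT and 11068 and 14164 in Msx2-KO (-0.93 ± 0.478) and Rplp2 at 1699.7 and 1350.0 against 5805 and 2135 (1.22 ± 0.705). Rps19 read 6212 and 5602 against 418 and 2560.5 (-2.51 ± 1.05), and Rps20 read 3151 and 3014 against 1665 and 1589 (-0.92 ± 0.459). Rps6 read 806 and 646 against 191 and 2470.2 (-0.07 ± 1.42) and overlapped, and so did Rpl11, at 570 and 327 against 498 and 330.0. Summed suprabasal markers were 272064 and 193459 units in WT EpdSCs and 42673 and 72215 in Msx2-KO, with Flg at 0 in Msx2-KO replicate 2. Of the 7, 5 were lower without overlap (44.5% of all genes). Sums over the 7 interfollicular basal markers were 246705 and 294511 against 673154 and 532527. Of these, 4 were higher and 1 lower without overlap (27.8% and 44.5% of all genes). Of 9 HFSC markers 7 had a row, and Cd34 and Fgf18 had none. Sums over the 7 were 89918 and 108400 against 310858 and 221083, with 4 higher without overlap (27.8% of all genes). Sums over 6 immune markers were 800.4 and 93.0 against 0 and 6.74. Their part in the result was not tested.

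Rpl38 read 194 and 170.5 units in WT EpdSCs and 2.73 and 72.7 in the Msx2-KO libraries, and Rpl24 read 187 and 132.04 against 45.4 and 131.66. Across both cell types, 33 of the 81 genes had both Msx2-KO libraries above WT in HFSCs and below WT in EpdSCs. Of the 13151 genes tested in both, 7.97% did. Taken singly, 59 of the 81 were higher in HFSCs and 42 lower in EpdSCs, so a joint count near 33 follows largely from these. The reverse pattern was seen in 4, against 8.58% of the genes tested in both.

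**Figure D4:**
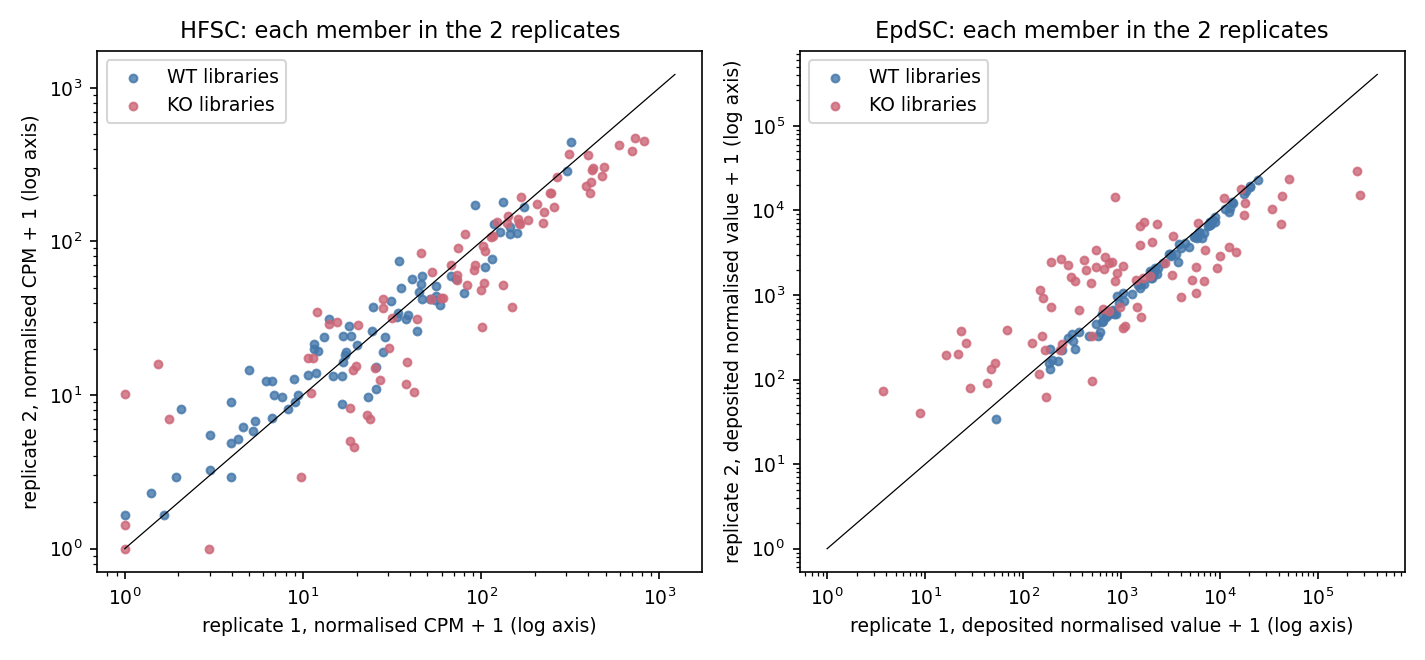
Level of each of the 81 ribosomal protein genes in replicate 1 (x axis) and replicate 2 (y axis) of WT (blue) and Msx2-KO (red), on log axes, for HFSCs (CPM + 1, left) and EpdSCs (deposited value + 1, right); the line marks equal values. WT EpdSC points lie along the line and Msx2-KO EpdSC points do not.

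The spread between replicates differed by group. Over the 80 genes with a mean of at least 100 in the EpdSC table, the standard deviation of the log2 ratio between replicates was 0.188 in WT and 1.94 in Msx2-KO, against 0.427 and 2.19 over 9149 other coding genes. In Msx2-KO EpdSCs 29 of the 80 were more than 4-fold apart between replicates (36.2%), against 24.8% of other coding genes, and none was in WT. In HFSCs, over 62 genes, it was 0.594 in WT and 0.634 in Msx2-KO, against 0.444 and 1.41 over 5461 others.

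Within the summed ribosomal protein counts, the composition was dominated by few genes in a single library. In Msx2-KO EpdSC replicate 1 Rps15a took 30.3% and Rplp1 28.5%, and the 5 highest took 74.2%. In Msx2-KO EpdSC replicate 2 the 2 genes took 5.22% and 10.1%. In WT EpdSCs Rps15a took 0.573% and 0.585% and Rplp1 2.22% and 2.18%. Without those 2 genes the EpdSC share of nuclear coding counts was 3.54% and 3.11% (WT) against 1.66% and 1.99%, so that the groups no longer overlapped; these 2 genes were chosen after their values were seen. Small-subunit genes took 37.4% to 41.3% of the sum in 7 libraries and 54.3% in Msx2-KO EpdSC replicate 1. In HFSCs Rpsa took 9.27% and 12.5% of the sum in WT against 4.97% and 4.91%.

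As a description over the 81 genes, which share each library's scaling, the log2 shares in Msx2-KO HFSC replicates 1 and 2 correlated with those in WT EpdSC replicate 1 at Pearson's r of 0.921 and 0.922, and with WT HFSC replicate 1 at 0.727 and 0.665. Msx2-KO HFSCs and WT EpdSCs share an age and a pattern of library names with close sample numbers, and WT HFSCs differ in both. Genotype, age and library names cannot be told apart in these correlations. The 2 Msx2-KO HFSC libraries correlated with each other at 0.904. Msx2-KO EpdSC replicates 1 and 2 correlated at 0.289 and 0.583 with WT EpdSC replicate 1, and at 0.793 with each other.

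Of the 8 listed paralogues, 4 were members with a row in both tables, and Rps4l was annotated as a transcribed pseudogene and so was not a member. Rpl7l1, a paralogue of Rpl7 known for a part in ribosome assembly, read 33.0 and 33.3 CPM in WT HFSCs and 30.7 and 30.8 in Msx2-KO (-0.11 ± 0.337), and 822 and 656 units in WT EpdSCs against 14721 and 3246 in Msx2-KO (3.23 ± 0.921). Its share of the pair with Rpl7 was 6.05% and 5.73% in WT EpdSCs and 86.4% and 32.0% in Msx2-KO. Rpl22l1, which in other cells is held down by Rpl22, had 42.9 and 35.2 estimated counts in WT HFSCs and 0 and 2.12 in Msx2-KO, while Rpl22 read 126 and 115 CPM against 224 and 156 (0.65 ± 0.279). In EpdSCs Rpl22l1 read 183 and 157 against 245 and 261 units. Rpl22 there read 8026 and 7205 units against 17844 and 8707 (0.71 ± 0.595), so both genes were higher in Msx2-KO without overlap. Whether Rpl22 acts on Rpl22l1 in these cells was not tested. Rps27l, a p53-responsive paralogue of Rps27, read 246 and 220.99 against 1045 and 408 units, and Rpl36al, of Rpl36a, 2045 and 1863 against 121 and 272 (-3.42 ± 0.626).

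Genes that work with the ribosome were counted from lists. Of 40 translation factors, HFSCs had a median log2 fold change of 0.53 with 23 higher and 3 lower without overlap (17.5% and 33.5% of all genes), and EpdSCs a median of 0.43. None was called by edgeR in HFSCs, where 7 had an unadjusted p under 0.05 (18.1% of all genes). DESeq2 called 2 higher and 0 lower in HFSCs (2.24% and 2.43% of all genes). None was called by limma in EpdSCs, where 11 had an unadjusted p under 0.05 (35.3% of all genes). The shares at an unadjusted p under 0.05 were thus no higher than over all genes. Of 46 ribosome biogenesis genes, 4 were called lower in EpdSCs and 0 higher, a share near the 7.78% of all genes called lower, among them Ncl, the nucleolar protein nucleolin, at 12148 and 11080 units in WT and 1314 and 1392 in Msx2-KO (-3.10 ± 0.462, adjusted p = 0.0410, limma), with Taf1d, Utp20 and Rrp9. Of 80 mitochondrial ribosomal protein genes in EpdSCs, 3 were called higher and 1 lower (1.57% and 7.78% of all genes), with a median of -0.88. In HFSCs their median over 78 genes was 0.65, with 25 higher and 18 lower without overlap (17.5% and 33.5% of all genes).

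Transcripts of the 81 genes are short, from 271 to 3706 bases with a median of 681. In HFSCs, other protein-coding genes with transcripts under 600 bases had a median log2 fold change of 0.998 (146 genes), falling to -0.26 over 4000 bases (3625 genes). Ribosomal protein genes under 600 bases had a median of 1.48 (29 genes), and those of 600 to 1000 bases 1.60 (32 genes) against 0.65 for other genes of that length (561 genes). Length thus moved with the fold change in HFSCs, and its part in the result was not tested. In EpdSCs the order differed by class, with a median of -0.44 for ribosomal protein genes under 600 bases (31 genes) against -0.81 for others, -1.40 against 0.02 at 600 to 1000 bases (32 genes), and -1.09 against -0.13 at 1000 to 2000 bases (16 genes).

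**Figure D5:**
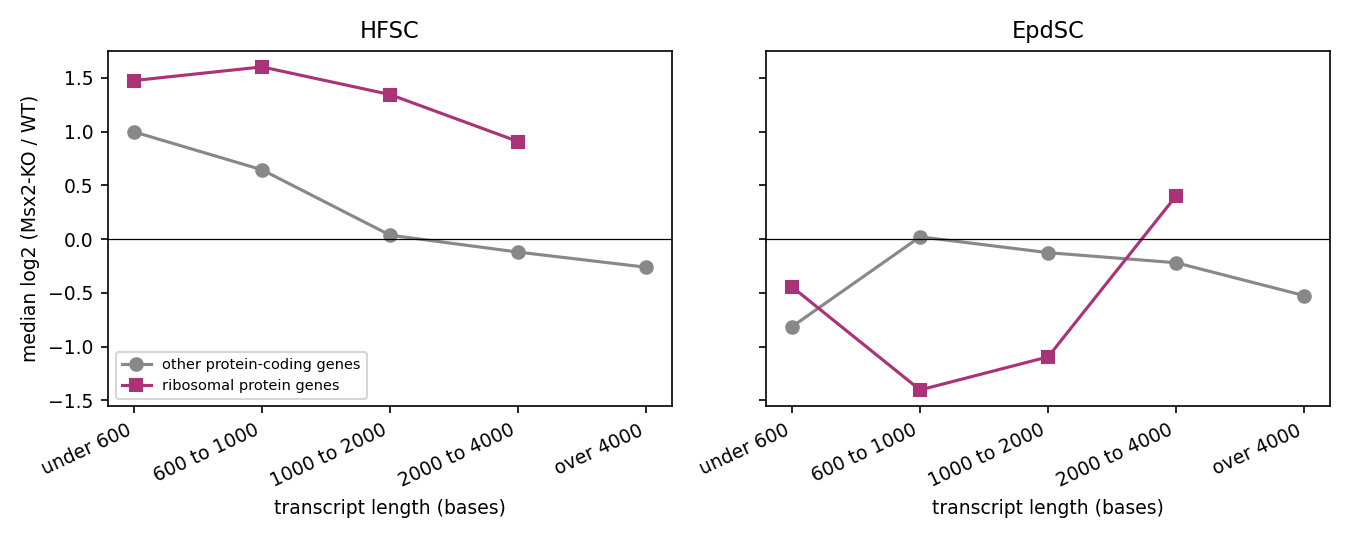
Median log2 fold change of Msx2-KO over WT (y axis) by transcript length class in bases (x axis) for ribosomal protein genes (squares) and other protein-coding genes (circles) in HFSCs (left) and EpdSCs (right). In HFSCs the other genes fall from 0.998 in the shortest class to -0.26 in the longest.

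Of the 81 genes, 30 hold a snoRNA gene inside the gene, 59 in all, 19 overlap another protein-coding gene and 23 overlap a gene on the other strand. The library kit keeps strand, but whether counting used it is not given in the sources used here, so reads of such pairs are uncertain. Among the 55 genes that overlap neither, 41 were higher in Msx2-KO HFSCs with the groups apart (59 of all 81 and 17.5% of all genes), and the median log2 fold change of the 53 tested was 1.62. Pseudogenes named for members, 144 in the HFSC table and 153 in the EpdSC table, belonged to 52 of the 81 genes. With their counts added to the parent, the median log2 fold change was 1.49 in HFSCs, with 77 of 80 above 0 (45.4% of all genes), and -0.93 in EpdSCs.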

How the data were processed

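RNA was extracted with a Qiagen AllPrep kit and made into libraries with a SMARTer stranded total RNA kit. Per the submitters' processing notes, reads were aligned with STAR 2.7.3a in Partek to GRCm38 (mm10); the counting method is not given in the sources used here. The HFSC table deposited by the authors holds estimated counts per gene, which were rounded here to whole numbers. The EpdSC table deposited by the authors holds a normalised signal, estimated counts divided by a factor per library, after a low-value filter whose rule is not given. At that factor, 72.8% to 82.6% of EpdSC values under 1000 were whole within 0.01, so whole reads were not taken as recovered and the count fit is an alternative only. The authors' own comparison columns (fold changes and p-values) were not used.

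HFSCs were fitted with edgeR 4.0.16 (quasi-likelihood, TMM, filterByExpr) and EpdSCs with limma 3.58.1 on log2(value + 1), in R 4.3.3, over the whole table, with Benjamini-Hochberg adjustment. A call needed an adjusted p under 0.05 and a fold change over 2. EpdSC fold changes are on the log2(value + 1) scale, which understates changes of low genes. Alternatives used DESeq2 1.42.0, limma-trend, other scalings, filters and pseudocounts, a replicate block and each library left out. Adding named pseudogenes to their member and the EpdSC count fit were chosen after seeing the data. The scripts were tested on simulated data with less spread than the HFSC libraries, whose edgeR common dispersion was 0.823. How the fits behave at that spread was not tested. Genes named in the text are the 5 with the highest mean and, among genes with a mean of at least 100, the 5 highest and 5 lowest fold changes per cell type, called genes, and listed stalk, 5S, mutant and paralogue genes with parents; Rpl26, Rps23 and other list members were added after their values were seen. The values of 1 gene that this rule names are not reported here; it stays in all counts. Members and lists were chosen with earlier results of these data known. Transcript length is the shortest APPRIS principal transcript of GENCODE M21, a definition settled after other lengths had looked too long for these genes. Counting error is the only error that depth covers.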

Additional observations from a re-analysis of the deposited data

Results flagged for a closer look

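In 33 ribosomal protein genes both Msx2-KO HFSC libraries lay above both WT HFSC libraries while both Msx2-KO EpdSC libraries lay below both WT EpdSC libraries. In 4, Rpl10, Rpl22l1, Rpl7l1 and Rps23, the reverse held. With named pseudogenes added, the HFSC log2 fold changes of Rpl10 (1.11) and Rps23 were above 0, and that of Rpl22l1 stayed at -5.32. Rpl10 in EpdSCs was then 0.67. The HFSC change of Rpl7l1 was small (-0.11). Of the 13151 genes tested in both cell types, 7.97% showed the first pattern and 8.58% the second. The count of 33 follows largely from the separate ones, 59 of the 81 higher in HFSCs and 42 lower in EpdSCs. The difference between the cell types was not tested, and the WT HFSC libraries differ from the rest in age and in the pattern of library names. An example of the first pattern is Rpl29 (log2 fold change 4.07 in HFSCs and -3.998 in EpdSCs).

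Pseudogenes named for members lie outside the 81 genes. As a ratio to nuclear coding counts, they stood at 1.99% and 1.42% in the 2 Msx2-KO HFSC libraries. In the WT HFSC libraries the ratio was lower, at 0.587% and 0.434%. The EpdSC ratios were 2.37% and 2.04% (WT) against 2.06% and 1.54%, with overlap. As a ratio to the summed counts of the 81 genes, they stood at 75.5% and 59.8% in WT HFSCs. In Msx2-KO HFSCs this ratio was 67.4% and 64.4%, so the groups overlapped. How reads were shared between the genes and their pseudogenes was not tested.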

How the results depend on the processing

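In HFSCs 0 ribosomal protein genes were called higher and 0 lower, and with that 0 of all genes in each direction. DESeq2 called 27 higher (all genes 323 higher and 351 lower), limma-trend 19 higher and 1 lower (158 and 1249), and library totals 2 higher (16 and 35). RLE factors, totals without mitochondrial and ribosomal RNA, no filter, and named pseudogenes added each gave 0. Leaving out 1 library gave 8 to 53 higher and 0 to 4 lower among ribosomal protein genes, and 90 to 2711 higher and 35 to 6561 lower among all. Higher calls of ribosomal protein genes were fewest without WT replicate 2 and most without Msx2-KO replicate 2. The median log2 fold change was 0.65 under library totals. The cause of these moves was not tested.

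In EpdSCs the 1 higher and 5 lower calls became 3 and 8 with a pseudocount of 10 and with a mean-dependent prior, 1 and 2 with a pseudocount of 0.1, 1 and 3 with table totals, 2 and 3 with TMM factors, and 0 and 0 with edgeR on worked-back counts. With named pseudogenes added, 1 ribosomal protein gene was called higher and 4 lower, against 244 and 1255 of all genes. Of all genes, 255 were called higher and 1263 lower, against 279 and 1102 with table totals and 368 and 1121 with TMM factors. Higher calls of all genes were 162, 619 and 684 with pseudocounts of 0.1 and 10 and the mean-dependent prior. Lower calls of all genes under those settings are not given here. By edgeR all genes gave 0 calls in both directions. Leaving out 1 library gave 0 to 24 higher and 0 to 40 lower, and 0 to 3745 and 0 to 6631 among all genes, with medians of -1.09 to -0.39. Totals without mitochondrial and ribosomal RNA gave a median of -1.47.

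Single genes changed sign in 23 of the 990 values recomputed for named genes. Under library totals in HFSCs this gave -0.19 for Rpl22, -0.67 for Rpl27a, -0.29 for Rpl36a, -0.46 for Rpl5, -0.49 for Rplp1 and -0.34 for Rpsa, and limma-trend gave -0.0027 for Rpl27a. Adding pseudogenes gave 1.11 for Rpl10 and 0.15 for Rps27a in HFSCs and 0.40 for Rps2 in EpdSCs. edgeR gave 1.13 for Rps6 in EpdSCs. With 1 library left out, HFSC values ranged from -0.61 to 0.58 for Rpl27a, -1.45 to 1.46 for Rpl36a, -0.52 to 1.74 for Rpl37a, -0.24 to 0.75 for Rpl5 and -0.68 to 1.44 for Rps6, and EpdSC values from -0.49 to 0.31 for Rpl11, -0.76 to 0.0937 for Rpl27a, -0.24 to 0.0183 for Rps2 and -1.91 to 1.77 for Rps6.

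With the replicate number as a block, 20 ribosomal protein genes were called higher and 0 lower in HFSCs (all genes 145 and 86, median of the ribosomal protein genes 1.46), and 1 and 4 in EpdSCs, where Rpl13a was lost (adjusted p = 0.0858, limma). The numbers only name libraries, since the difference between replicates 1 and 2 correlated across genes between WT and Msx2-KO at 0.0208 in HFSCs and -0.0380 in EpdSCs. Adding pseudogenes and the EpdSC count fit were chosen after seeing the data. As a percent of nuclear coding counts in place of all counts, the summed share was 0.777% and 0.726% in WT HFSCs, 2.95% and 2.21% in Msx2-KO HFSCs and 3.65% and 3.20% in WT EpdSCs. Rpl38 had too few counts in HFSCs to be tested, and with 2 libraries a group a single library decides many calls.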
